A study of Homo sapiens with 6 samples.

Results

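The NRF2 antioxidant genes examined here are 9 protein-coding genes of the oxidative stress response: NFE2L2, KEAP1, NFE2L1, HMOX1, GCLM, GCLC, TXNRD1, SRXN1 and OSGIN1. The set was chosen with earlier results of these data known. Its genes were taken by symbol from a table of 58735 genes, and all 9 were among the 15881 genes tested. RNA-seq had been done on MDA-MB-231, a mesenchymal triple-negative human breast cancer line of unmodified (WT) genotype. All cells, controls included, were stained with the membrane dye PKH26, which is diluted as cells divide, and then grown for 12 days. The slow-cycling group (SCC) was the brightest 1% at sorting, and the rapid-cycling group (RCC) was sorted at moderate brightness, although 1 label field calls it low. Each group had 3 biological replicates of this 1 cell line, so the 6 libraries say nothing about other tumours.

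NRF2, the protein of NFE2L2, is a basic leucine zipper factor that KEAP1 normally delivers to a CUL3 ubiquitin ligase for destruction. Oxidants and electrophiles modify cysteines of KEAP1, after which NRF2 accumulates, pairs with a small MAF protein and binds antioxidant response elements near genes for glutathione synthesis, thioredoxin reduction and heme breakdown. Because this control acts mainly on the protein, NFE2L2 mRNA is not a measure of NRF2 activity. The core of the element resembles the site bound by AP-1, the factor named in the title of the series.

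Promoter sequences show which of the genes carry such a core close to a start site. RefSeq promoters on GRCh38.p14, each covering 250 bases before and 50 after a start site, were matched for 8 of the 9 genes, in 12 windows. HMOX1 has no entry. The searched letters were TGACNNNGC and TGAGNNNGC for the antioxidant element and TGACTCA for AP-1, on both strands. A site with both kinds of letters is counted under both. At least 1 of the antioxidant letters was in 6 of the 12 windows, those of NFE2L2, KEAP1, GCLM, TXNRD1 and OSGIN1, against 29.1% of all 35116 promoter windows of that length. TGACTCA was in 1 of the 12 windows, that of OSGIN1, against 4.95% of all windows. The following 29-base stretches are printed 5′ to 3′ on the gene's own strand with the core in capitals, because this core is the element that defines the pathway and, in OSGIN1, it coincides with the AP-1 letters. They lie at chr1:93909446-93909474 (GCLM, minus strand), chr19:10502784-10502812 (KEAP1, minus), chr12:104286920-104286948 (TXNRD1, plus) and chr16:83953131-83953159 (OSGIN1, plus).
GCLM: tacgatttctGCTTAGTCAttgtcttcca
KEAP1: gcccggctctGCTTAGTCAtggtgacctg
TXNRD1: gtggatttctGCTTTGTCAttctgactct
OSGIN1: acgggcccctGCTGACTCAcgcttatgaa
GCLM and KEAP1 carry the same 9 core letters, which begin 34 bases before the GCLM start site and 31 before the second KEAP1 start site. The other KEAP1 window held none of the searched letters. All 29 bases of the KEAP1 and TXNRD1 stretches, and 11 of the GCLM stretch, lie in annotated untranslated regions. The sites found in NFE2L2 and further ones in KEAP1, GCLM and TXNRD1 are not printed. The core of TXNRD1 begins 102 bases before the second of its start sites, and that of OSGIN1, which overlaps TGACTCA, 99 bases before. The windows of SRXN1, GCLC and NFE2L1 held none of the searched letters. These are letter matches and show no binding.

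None of the 9 genes passed the test between SCC and RCC. The counts were fitted with edgeR's quasi-likelihood test, and a gene was called at a Benjamini-Hochberg adjusted p under 0.05 over all tested genes. By that rule 0 of 9 were higher and 0 lower, against 1.69% of all tested genes called higher and 0.378% called lower (2.07% in either direction). Over all tested genes these were 268 and 60 calls, and an offset for GC content made them 523 and 245. The libraries are bulk RNA, in which fewer cells of a type and less RNA per cell cannot be told apart. DESeq2 and limma also called 0. At an unadjusted p under 0.05, 4 of the 9 had higher values in SCC (HMOX1, OSGIN1, SRXN1 and NFE2L1) and 0 lower ones, against 11.4% and 8.27% of all tested genes (19.7% in either direction). The groups did not overlap for 3 of the 9 (NFE2L1, HMOX1 and OSGIN1, all with SCC above), against 14.4% of tested genes with SCC above, 13.4% with SCC below and 27.8% either way. The median log2 fold change was 0.12 over the 9 genes and 0.00 over all tested genes. The 9 genes were chosen with earlier results of these data known, so their shares are a description only. For scale, the log2 fold change of FOS, an AP-1 subunit called higher, was 3.12, while the highest of the 9 was 0.50.

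Summed counts per library ran from 17655855 to 27831824, and the 9 genes took 0.115% to 0.120% of them. The cell line's 6 markers were present in every library (VIM at 145 to 161 FPKM, EGFR at 59.2 to 63.5). Of these 6, 0 were called, and unadjusted p was under 0.05 for 2 with higher values in SCC (33.3%) and 0 with lower ones. All tested genes gave 11.4% and 8.27%. The groups did not overlap for S100A4 (45.4 to 54.4 FPKM in SCC, 36.6 to 40.9 in RCC) and SPARC (6.39 to 7.39 and 5.00 to 6.37). The receptor genes ESR1 and PGR were at or near 0. ERBB2 was at 6.88 to 10.2 FPKM. Of the luminal markers, KRT19 was at 34.2 to 51.5 FPKM, GATA3 at 2.01 to 2.93, FOXA1 at 1.61 to 2.91 and EPCAM at 1.42 to 2.29. CDH1 had 10 counts or fewer in every library. Of this list of 8, 5 genes were tested and 0 called. Unadjusted p was under 0.05 for 2 with higher values in SCC (40%) and 0 with lower ones. All tested genes gave 11.4% and 8.27%. Counts of 10 leukocyte markers summed to 4.10 CPM of unscaled totals in SCC replicate 1 and 0.967 to 1.75 in the other 5 libraries, with CD3E, CD2 and MS4A1 at 2 counts or fewer in every library. PTPRC, the 1 leukocyte marker tested, had 53, 5 and 15 counts in SCC and 4, 3 and 10 in RCC (log2 fold change 1.84, unadjusted p 0.029, adjusted p 0.206). In SCC replicate 1 ITGAM had 26 counts and LYZ 13, against at most 7 and 1 in the other libraries. Counts of 9 stromal and endothelial markers summed to 27 to 30.9 in the same unit in SCC and 21.8 to 26.5 in RCC, with COL1A2, DCN and LUM at 5 counts or fewer throughout. Most of that sum came from COL1A1 (158 to 435 counts, highest in SCC replicate 1), PDGFRB (202 to 328) and PECAM1 (49 to 82). COL1A1 was at 1.18 to 1.62 FPKM in SCC against 0.879 to 1.11 in RCC. Of the 9, 3 were tested and 0 called. Unadjusted p was under 0.05 for 1 with higher values in SCC (33.3%) and 0 with lower ones, against 11.4% and 8.27% of all tested genes. The part of these markers in the differences below was not tested. SCC replicate 1 also stood apart by GC content. Its median log2 deviation from the mean of the libraries was -0.24 in the decile of genes poorest in GC and 0.40 in the richest decile, while the other libraries lay between -0.16 and 0.10. Each of the 9 genes is therefore given below with and without this library.

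The 9 genes covered a wide range of levels, which is read here from FPKM, the authors' counts scaled to gene length and library total. TXNRD1, the cytosolic and nuclear thioredoxin reductase, averaged 61.6 FPKM over the 6 libraries. NFE2L1 averaged 60.1, and the ranges of these genes overlapped (57.3 to 65.5 and 56.0 to 66.8). KEAP1 followed at 31.5, GCLM at 24.9 and NFE2L2 at 12.5, each separated from its neighbours in every library. SRXN1 (5.28), GCLC (5.25) and HMOX1 (4.41) overlapped one another, and OSGIN1 was lowest at 2.92 (2.40 to 4.03), its range touching that of HMOX1 (3.73 to 5.54).

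**Figure D1:**
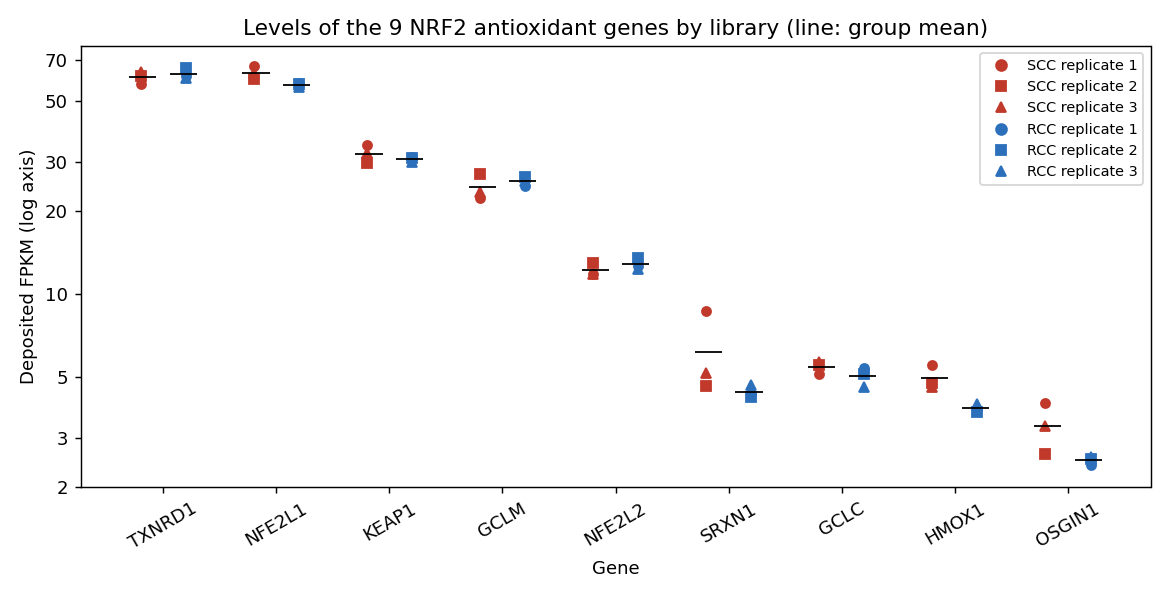
Deposited FPKM (log axis) of the 9 genes in each of the 6 libraries, SCC in red and RCC in blue, with a black line at each group mean (n = 3). The genes run from about 60 FPKM for TXNRD1 and NFE2L1 to 2.92 for OSGIN1, and the circle of SCC replicate 1 stands above the other SCC libraries for SRXN1 (8.67 FPKM).

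Among the regulators, NFE2L2 (ENSG00000116044, chromosome 2, 177227595 to 177392697, minus strand, GRCh38) did not pass the test. Its CPM, the count scaled to a common TMM-adjusted library total, were 71.4, 77.8 and 70.7 in SCC replicates 1 to 3 and 76.3, 80.5 and 73.9 in RCC replicates 1 to 3. The groups overlapped, with the highest value in RCC replicate 2. The fitted log2 fold change of SCC over RCC was -0.07 (SE 0.07, adjusted p 0.606), and its unadjusted 95% interval spans 0.851- to 1.07-fold. It was -0.05 without SCC replicate 1. The gene span overlaps that of AGPS on the opposite strand, by an extent not examined here. The use of strand in counting was not given in the sources used here.

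KEAP1 (ENSG00000079999, chromosome 19, 10486120 to 10503741, minus strand), the substrate adaptor that holds NRF2 down, had SCC values of 132, 113 and 122 CPM and RCC values of 119, 117 and 113 CPM. The SCC values lay on both sides of the RCC ones. Its log2 fold change was 0.07 (SE 0.07, adjusted p 0.606; interval 0.939- to 1.17-fold), and it was 0.01 without SCC replicate 1 and -0.11 once an offset for GC content was fitted. The ratio of NFE2L2 to KEAP1 on the FPKM scale was 0.380 ± 0.048 in SCC against 0.416 ± 0.016 in RCC (SD, n = 3), and the libraries overlapped (exact permutation p = 0.3, two-sided, adjusted p 0.3 over 3 ratios, where 0.1 is the smallest raw p possible).

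NFE2L1 (ENSG00000082641, chromosome 17, 48048329 to 48061487, plus strand) encodes the related factor NRF1, which sits in the endoplasmic reticulum membrane and, once released, drives proteasome genes. It had SCC values of 395, 350 and 368 CPM and RCC values of 339, 334 and 328 CPM. Every SCC library was above every RCC library, which held with SCC above for 14.4% of all tested genes. The log2 fold change was 0.15 (SE 0.07) and did not pass (unadjusted p 0.041, adjusted p 0.237). It was 0.10 without SCC replicate 1, and the GC offset gave 0.06. On the FPKM scale NFE2L1 exceeded NFE2L2 by 5.21 ± 0.54 times in SCC against 4.46 ± 0.17 times in RCC (SD, n = 3), and the groups did not overlap (exact permutation p = 0.1, adjusted p 0.3).

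HMOX1 (ENSG00000100292, chromosome 22, 35380361 to 35394214, plus strand), the stress-inducible heme oxygenase that opens heme to biliverdin, carbon monoxide and iron, had the smallest p of the 9 genes. It had SCC values of 13.5, 11.5 and 11.1 CPM and RCC values of 9.26, 8.94 and 9.68 CPM. The groups did not overlap, and SCC replicate 1 was the highest library. The log2 fold change was 0.38 (SE 0.12), or 1.30-fold (95% interval 1.08- to 1.57-fold), with an unadjusted p of 0.0096 and an adjusted p of 0.137. Without SCC replicate 1 it was 0.29 and with the GC offset 0.24. Depth limits this gene: the closest libraries of the groups had 235 counts (SCC replicate 3) and 173 counts (RCC replicate 3), which are 11.1 and 9.80 CPM on the unscaled totals, with 95% Wilson intervals of 9.77 to 12.6 and 8.44 to 11.4 that cover counting error only.

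The genes of glutathione synthesis had small differences of opposite sign. GCLC (ENSG00000001084, chromosome 6, 53497341 to 53616970, minus strand) encodes the catalytic subunit of glutamate-cysteine ligase, the rate-limiting enzyme, and GCLM (ENSG00000023909, chromosome 1, 93885205 to 93909456, minus strand) its modifier subunit. GCLC had SCC values of 45.0, 48.2 and 49.3 CPM and RCC values of 46.9, 44.1 and 40.1 CPM. GCLM had SCC values of 122, 148 and 127 CPM and RCC values of 134, 143 and 139 CPM. Both pairs of groups overlapped, and the log2 fold changes were 0.12 ± 0.08 (SE, adjusted p 0.445) for GCLC and -0.07 ± 0.08 (SE, adjusted p 0.645) for GCLM. Dropping SCC replicate 1 gave 0.16 for GCLC and -0.01 for GCLM. The sign for GCLM turned with the GC offset (0.07, adjusted p 0.533), and GCLM had the lowest GC content of the 9 genes (37.3%). The FPKM ratio of GCLM to GCLC was 4.45 ± 0.40 in SCC against 5.10 ± 0.49 in RCC (SD, n = 3; exact permutation p = 0.2, adjusted p 0.3).

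In the thioredoxin branch neither gene passed the test. TXNRD1 (ENSG00000198431, chromosome 12, 104215779 to 104350305, plus strand) had SCC values of 390, 415 and 428 CPM and RCC values of 414, 438 and 407 CPM. Its log2 fold change of -0.03 (SE 0.06, adjusted p 0.822) has an interval of 0.888- to 1.08-fold, and its sign turned once SCC replicate 1 was dropped (0.01) or the GC offset fitted (0.02). The gene span overlaps that of the processed pseudogene RPL18AP3 on the same strand. SRXN1 (ENSG00000271303, chromosome 20, 646615 to 653370, minus strand), the sulfiredoxin that restores overoxidised peroxiredoxins, had SCC values of 23.7, 12.6 and 13.9 CPM and RCC values of 11.8, 11.4 and 12.6 CPM. SCC replicate 1 was far above all others, and SCC replicate 2 was below RCC replicate 3. SRXN1 had the highest log2 fold change of the 9 (0.50, SE 0.21, adjusted p 0.220), which was 0.15 without SCC replicate 1, and the GC offset gave 0.43. With the filter lowered to 1 count, SRXN1 was called (0.51, adjusted p 0.0065).

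OSGIN1 (ENSG00000140961, chromosome 16, 83948282 to 83966332, plus strand), a growth inhibitor gene induced by oxidative stress, had SCC values of 14.2, 9.15 and 11.5 CPM and RCC values of 8.39, 8.70 and 8.95 CPM. All SCC libraries were above all RCC libraries, SCC replicate 2 by little. The log2 fold change was 0.43 (SE 0.16, adjusted p 0.178). It was 0.26 without SCC replicate 1, 0.18 with the GC offset and 0.56 without SCC replicate 2, and in that last fit it was called (adjusted p 0.041). SCC replicate 2 had 179 counts, or 9.18 CPM on the unscaled total (95% Wilson interval 7.93 to 10.6), and RCC replicate 3 had 160, or 9.06 (7.76 to 10.6), so these libraries cannot be separated at this depth.

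**Figure D2:**
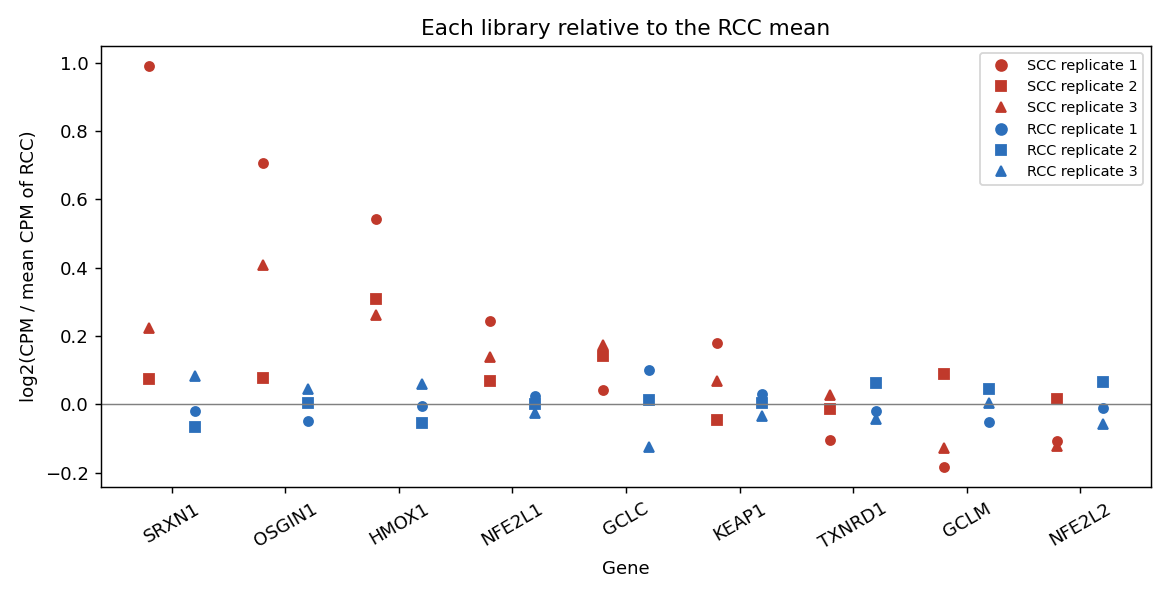
Each library's CPM over the mean CPM of RCC, as log2, for the 9 genes ordered by fitted fold change, with SCC in red, RCC in blue and the replicate given by the symbol. SCC libraries lie above all RCC libraries for OSGIN1, HMOX1 and NFE2L1, and for SRXN1 SCC replicates 1 (23.7 CPM) and 3 (13.9 CPM) do and replicate 2 (12.6 CPM) does not.

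The 9 genes are set out here by GC content and by the deviation of SCC replicate 1. That library is 1 of the 3 SCC libraries in each fold change, so the deviation and the fold change are not independent. The 5 genes with a GC content of 53.6% to 63.4% (SRXN1, NFE2L1, HMOX1, KEAP1 and OSGIN1) had log2 fold changes of 0.07 to 0.50. In these SCC replicate 1 was above the mean of the other 5 libraries by 0.17 to 0.93 on the log2 scale. The 4 genes at 37.3% to 45.6% GC (GCLM, GCLC, TXNRD1 and NFE2L2) had log2 fold changes of -0.07 to 0.12, and SCC replicate 1 deviated in them by -0.18 to -0.02. Within these sets the order by fold change was not the order by GC content. SRXN1 at 53.6% had 0.50 and KEAP1 at 60.3% had 0.07, and GCLC at 44.3% had 0.12 and NFE2L2 at 45.6% had -0.07. The cause was not tested. With the GC offset the 9 log2 fold changes ranged from -0.11 (KEAP1) to 0.43 (SRXN1), and 0 were called. Within SCC the coefficient of variation was 36.3% for SRXN1 and 21.6% for OSGIN1 but 4.64% to 10.7% for the other 7, and in RCC it was 1.68% to 7.77% for all 9.

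**Figure D3:**
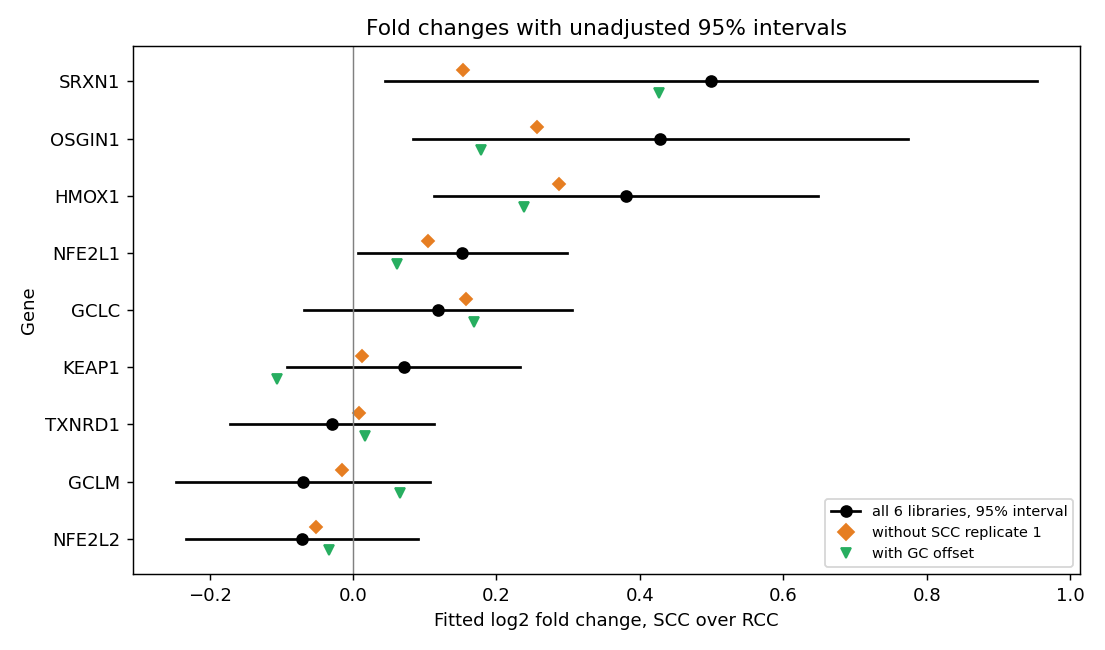
Fitted log2 fold change of SCC over RCC for each gene from all 6 libraries (black, with unadjusted 95% interval), after dropping SCC replicate 1 (orange) and with the GC offset (green). HMOX1, OSGIN1, SRXN1, NFE2L1 and GCLC stay above 0 in all 3 fits, whereas KEAP1, GCLM and TXNRD1 lie near 0 and change sign in at least 1 of them.

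The library pattern of HMOX1 was most like that of 5 genes outside the set, by Pearson r of log2 CPM over the same 6 libraries among 10904 genes at a mean of at least 5 CPM. These were RRAS, SLC4A11, SYNE1, PMVK and HEG1, with r from 0.993 to 0.999. None of them was called (adjusted p 0.058 to 0.168), and their log2 fold changes were 0.25 to 0.47. The ranking is a description, since all genes share the same libraries and a group difference alone raises r.

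The wider NRF2 circuit was given by 7 lists, chosen with earlier results of these data known, so their shares are a description only. Of 116 distinct genes, 109 were tested, with 7 called higher (6.42%) and 1 called lower (0.917%). All tested genes gave 1.69% and 0.378%, and the median log2 fold change of the 109 genes was 0.01. Unadjusted p was under 0.05 for 25 of the 109 with higher values in SCC (22.9%) and 7 with lower ones (6.42%). All tested genes gave 11.4% and 8.27%. The groups did not overlap for 29 with SCC above (26.6%) and 13 with SCC below (11.9%), against 14.4% and 13.4% of all tested genes.

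Among the partners and regulators of NRF2, 1 gene was called. MAFF, a small MAF protein that pairs with NRF2 or with its repressor BACH1 on the element, had SCC values of 118, 92.8 and 90.9 CPM and RCC values of 49.1, 49.6 and 51.4 CPM. It was higher in SCC by 1.01 on the log2 scale (SE 0.10, adjusted p 3.6e-04), and the groups did not overlap. It was 0.88 without SCC replicate 1, the GC offset gave 0.80, and MAFF was called in both. The other 13 tested genes of this list of 15 were not called, and the list's median was 0.12. The 1 call was 7.14% of its tested genes, against 1.69% of all tested genes called higher. The groups did not overlap for 6 with SCC above (42.9%) and 2 with SCC below (14.3%), against 14.4% and 13.4% of all tested genes. Unadjusted p was under 0.05 for 4 of the list's 14 tested genes with higher values in SCC (28.6%) and 0 with lower ones. All tested genes gave 11.4% and 8.27%. The estimate for SQSTM1, the autophagy receptor p62 that sequesters KEAP1, was 0.34 (adjusted p 0.089), and that for MAFG, another small MAF gene, 0.20 (adjusted p 0.178). SQSTM1 was called in 6 of 17 alternatives, with DESeq2 (adjusted p 0.030), the GC offset (0.19, adjusted p 0.031) and without SCC replicate 1 (0.23, adjusted p 0.0041) among them. Of the 5 genes that retrotranslocate, deglycosylate, glycosylate or cut the NFE2L1 protein, 0 were called. At an unadjusted p under 0.05 there was 1 with lower values in SCC (20%) and 0 with higher ones, against 8.27% and 11.4% of all tested genes. The groups did not overlap for 1 with SCC above (20%) and 0 with SCC below, against 14.4% and 13.4%. OGT had a log2 fold change of -0.20, SYVN1 of 0.20 and DDI2 of -0.14 (adjusted p 0.223, 0.278 and 0.363). Without SCC replicate 1 these were -0.13, 0.08 and -0.07.

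Of 37 further genes often named as NRF2 targets, 32 were tested and 1 was called. ABCC3, an exporter of organic anions and conjugates, had SCC values of 102, 91.4 and 83.9 CPM and RCC values of 71.0, 65.2 and 69.9 CPM (log2 fold change 0.43, SE 0.08, adjusted p 0.028). ABCC3 was not called without RCC replicate 1, 2 or 3 (adjusted p 0.130, 0.160 and 0.145). The next by p were AKR1C3 (0.64, adjusted p 0.059) and AKR1C1 (1.53, adjusted p 0.061), aldo-keto reductases of a family of near-identical copies, whose counts are uncertain. AKR1C3 was called in 5 of 17 alternatives and AKR1C1 in 8 of 14, with DESeq2 (adjusted p 0.044 and 0.011) and the GC offset (0.016 and 0.018) in both cases. AKR1C1 was scarce, at 2.10 ± 0.24 CPM in SCC against 0.725 ± 0.41 in RCC (SD, n = 3). The median of this list was 0.00. Unadjusted p was under 0.05 for 9 of the 32 with higher values in SCC (28.1%) and 2 with lower ones (6.25%). All tested genes gave 11.4% and 8.27%. The groups did not overlap for 9 with SCC above (28.1%) and 4 with SCC below (12.5%), against 14.4% and 13.4% of all tested genes. NQO1, the quinone reductase commonly read as a reporter of NRF2 and named here after its values were seen, was at 329 ± 17.1 CPM in SCC against 325 ± 10.1 in RCC (SD, n = 3; log2 fold change 0.02, adjusted p 0.908). SLC7A11, the cystine importer that feeds glutathione synthesis, was likewise chosen afterwards. It had lower values in every SCC library (171 ± 13.7 against 200 ± 8.43 CPM), as did 13.4% of all tested genes. Its log2 fold change of -0.22 did not pass (adjusted p 0.153). SCC replicate 1 was its lowest library (156 CPM). The GC content of SLC7A11 was 35.4%, near the median of the decile poorest in GC (36.8%), where SCC replicate 1 had low values. Its fold change without that library or with the GC offset is not given.

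Among 27 genes that handle glutathione, 26 were tested, 2 were higher and 1 was lower. Unadjusted p was under 0.05 for 5 with higher values in SCC (19.2%) and 3 with lower ones (11.5%). All tested genes gave 11.4% and 8.27%. CHAC1, which degrades glutathione and is a known target of the stress factor ATF4, had SCC values of 7.20, 6.80 and 7.26 CPM and RCC values of 4.39, 4.21 and 4.42 CPM (log2 fold change 0.71, SE 0.14, adjusted p 0.028). SLC3A2, the heavy chain shared by the cystine importer and other amino acid transporters, was higher by 0.32 (SE 0.07, adjusted p 0.045). GLRX2, a mainly mitochondrial glutaredoxin, was lower, with 27.5 ± 0.43 CPM in SCC against 35.5 ± 1.17 in RCC (SD, n = 3; log2 fold change -0.37, adjusted p 0.042). These calls were narrow: CHAC1, SLC3A2 and GLRX2 were each not called without SCC replicate 3 or without RCC replicate 1, 2 or 3, with adjusted p of 0.098 to 0.225. With the GC offset CHAC1 was at 0.49 (adjusted p 0.080) and GLRX2 at -0.20 (0.171).

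In the list of 18 thioredoxin and peroxiredoxin genes, 2 were called higher and 0 lower. Unadjusted p was under 0.05 for 4 with higher values in SCC (22.2%) and 1 with lower ones (5.56%). All tested genes gave 11.4% and 8.27%. TXNIP, which binds and inhibits thioredoxin and restrains glucose uptake, had SCC values of 107, 124 and 113 CPM and RCC values of 65.6, 63.6 and 61.9 CPM (log2 fold change 0.85, SE 0.08, adjusted p 1.7e-04). SESN2, a sestrin that lowers mTORC1 signalling under stress, had SCC values of 21.5, 17.2 and 14.0 CPM and RCC values of 8.26, 7.79 and 7.22 CPM (1.18, SE 0.16, adjusted p 0.0023). Of the peroxiredoxins, PRDX2 had the smallest p (0.33, adjusted p 0.076), and the median of the list was -0.02. PRDX2 was called in 7 of 17 alternatives, with DESeq2 (adjusted p 0.030), the GC offset (0.21, adjusted p 0.042) and without SCC replicate 1 (0.25, adjusted p 0.0061) among them. SOD3, the secreted superoxide dismutase, was the 1 called gene among 4 of superoxide and hydrogen peroxide removal. It had SCC values of 22.3, 9.51 and 9.44 CPM and RCC values of 4.91, 5.78 and 4.81 CPM (log2 fold change 1.42, SE 0.31, adjusted p 0.042), and it was not called without RCC replicate 1, 2 or 3 (adjusted p 0.189, 0.130 and 0.186). SCC replicate 1 was far above the other libraries, and the GC content of SOD3 was 68.2%. SOD3 was at 0.87 without SCC replicate 1 and at 1.03 with the GC offset, called in both. SOD1 and SOD2, the cytosolic and mitochondrial enzymes, had log2 fold changes of -0.10 and 0.03 (adjusted p 0.551 and 0.840), and SOD2 has a further row in the table that was too low to test.

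Of 20 genes of heme and iron handling, 0 were called. At an unadjusted p under 0.05 there were 3 with higher (15%) and 2 with lower (10%) values in SCC, near the 11.4% and 8.27% of all tested genes. For TFRC, the transferrin receptor, the log2 estimate was -0.20 (adjusted p 0.168). BLVRB, a biliverdin reductase that acts after heme oxygenase, was at 0.26 (0.18), and FLVCR1, a heme exporter, at -0.19 (0.202). Of the 8 called genes of the lists, TXNIP was the 1 called under all 17 alternatives. limma on log2(FPKM + 1) did not call ABCC3 (adjusted p 0.082), SLC3A2 (0.105), GLRX2 (0.052) or SOD3 (0.159), and without its filter it also did not call MAFF (0.053), SESN2 (0.145) or CHAC1 (0.076). Upper-quartile scaling left SLC3A2 just outside the threshold (0.0503).

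**Figure D4:**
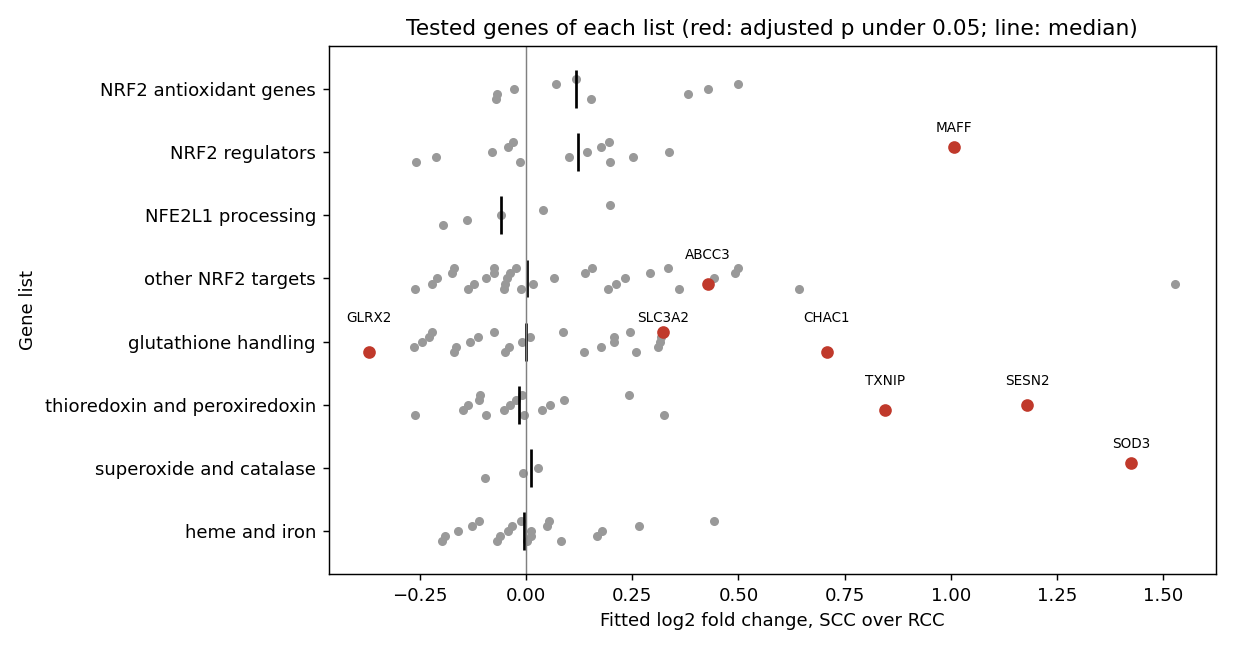
Fitted log2 fold change of SCC over RCC for each tested gene of the 9 NRF2 antioxidant genes and of the 7 further lists, with genes called at an adjusted p under 0.05 in red and a black line at each list's median. The medians lie between -0.06 and 0.12, and the called genes MAFF, TXNIP, SESN2 and SOD3 stand apart from them at 0.85 to 1.42, as does AKR1C1 at 1.53, which was not called.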

How the data were processed

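Counts and FPKM per gene were deposited by the authors in 2 tables of 6 libraries. The submitters' processing notes name HISAT2 2.0.5 and featureCounts 1.5.0-p3. Genome build, annotation, read filters and use of strand were not given in the sources used here. All 58735 rows matched GENCODE 29 (GRCh38) by ID and coordinates, and 27 names that differed were taken from it by ID. The deposited FPKM values equalled count over gene length and a constant per library (to within 0.001 of the value), 0.983 to 1.02 times its summed count. No column of another sample was present. Library totals were 17655855 to 27831824.

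Counts were filtered with filterByExpr (minimum count 10), scaled by TMM and fitted on group alone by glmQLFit in edgeR 4.0.16 (R 4.3.3), two-sided, with Benjamini-Hochberg adjustment at 0.05. Standard errors are the log2 fold change over the square root of F. Alternatives were DESeq2 1.42.0, other scalings and filters, a GC offset (lowess span 0.3 on the longest GENCODE transcript, 58676 genes), the replicate number as a block, each library left out, and limma 3.58.1 with trend on log2(FPKM + 1) or log2(FPKM + 0.1), with FPKM of at least 1 in 3 libraries or no filter. Scripts were tested on simulated data.

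The 9 genes and the lists were chosen with earlier results of these data known. Named genes were the 9, every called gene of a list, filled up to 3 by smallest p, and the 5 genes most like the gene with the smallest p. Ratios were compared by an exact permutation test. P-values of the fits weigh the difference between groups against the spread of these replicates of 1 cell line. Those of the permutation test compare it with the other assignments of the 6 libraries to groups.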

Additional observations from a re-analysis of the deposited data

How the results depend on the processing

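Of the 9 genes, 0 were called lower under any of the 17 alternatives, and 1 was called higher in 2 of them: SRXN1 with the filter lowered to 1 count, and OSGIN1 without SCC replicate 2. Across the fits that each left out 1 library, 0 to 1 of the 9 were called. HMOX1 kept its direction and was not called in any alternative (log2 fold change 0.24 to 0.42, adjusted p 0.097 to 0.372), and NFE2L2 stayed below 0 (-0.13 to -0.03). Signs turned under the GC offset, alone and with the replicate block, for KEAP1 (-0.106 and -0.107), GCLM (0.065 in both) and TXNRD1 (0.017 in both), without SCC replicate 1 for TXNRD1 (0.008) and SOD1 (0.005), and for SOD2 without SCC replicate 3 (-0.004) or RCC replicate 3 (-0.019), none of them called. Without 1 library, TXNRD1 ranged from -0.068 to 0.008, SOD1 from -0.175 to 0.005 and SOD2 from -0.019 to 0.063. OSGIN1 and HMOX1 had between 160 and 382 counts per library, which limits their precision.

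Against 268 higher and 60 lower genes among all tested, DESeq2 gave 480 and 170, every gene with at least 1 count 995 and 315, and the GC offset 523 and 245. limma on log2(FPKM + 1) gave 130 and 36, on log2(FPKM + 0.1) 117 and 34, and without a filter 48 and 1. With the replicate block 350 genes were higher and 106 lower, and with the block and the GC offset 621 were higher and 432 lower. Without 1 library, higher genes ranged from 99 to 642 and lower genes from 8 to 343. The higher share of calls was 81.7% in the analysis reported and 68.1% with the GC offset, 59.0% with block and GC offset. For the pathway lists (7 higher, 1 lower), DESeq2 gave 12 higher, every gene with at least 1 count 14 and 2 lower, the GC offset 11 and 0, the block 0 lower, the block with the GC offset 13 and 2, and limma 4 and 0, 4, or 1 and 0 in the order above. Without 1 library they ranged from 3 to 14 higher and 0 to 1 lower. The cause was not tested, though fewer libraries enter the fits without 1.

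The labels named no pairing, so the replicate numbers were not taken as pairs. Same-numbered replicates did not deviate together (correlations of deviations -0.01, 0.02 and -0.08). With the replicate block 0 of the 9 genes were called, while calls over all tested genes rose from 268 and 60 to 350 and 106.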
